A study of Mus musculus with 6 samples.

Results

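The 36 genes described here are products that mark a differentiated hepatocyte: plasma carriers and apolipoproteins, clotting and protease inhibitor proteins, complement and acute phase proteins, and enzymes of the urea cycle, amino acid breakdown and gluconeogenesis. They were chosen by name, and all 36 were found among the 55573 rows of the deposited count table. Bulk RNA-seq libraries were made from Matr3 knockout Hepa1-6 cells, edited with CRISPR/Cas9, and from wild-type (WT) Hepa1-6 cells, 3 libraries each. Hepa1-6 is a mouse line that came from a liver tumour, and cells of both groups were grown in DMEM with fetal bovine serum. The labels give no age, clone number, guide or culture for any library, so each p-value rests on a spread between libraries that may be technical.

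Hepatocytes secrete most of the proteins of blood plasma, from albumin and the apolipoproteins to fibrinogen and complement, and they turn ammonia into urea through an enzyme cycle that starts in the mitochondrion. These genes are transcribed mainly in the liver and are driven by liver transcription factors such as HNF4 and C/EBP. Liver tumour lines often keep part of this output, and alpha-fetoprotein, the fetal counterpart of albumin, is a classic marker of such tumours. During inflammation, interleukin-6 and related cytokines raise the acute phase proteins, among them serum amyloid A, haptoglobin, LBP, C3 and factor B.

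Library totals lay between 23126778 and 30794032 counts in the knockout and between 20736570 and 27578804 counts in WT. Matr3, which encodes the nuclear RNA-binding protein matrin 3, had 75.9, 86.0 and 75.2 CPM (counts scaled to a common library size) in knockout libraries and 129, 125 and 134 CPM in WT libraries, which was 1.64-fold lower in the knockout (edgeR adjusted p = 0.00270). Knockout library 2 and WT library 1 stood apart from their groups: the chi-square per gene was 54.8 and 65.7 between knockout library 2 and the other knockout libraries against 3.41 between those, and 23.0 and 27.4 between WT library 1 and the other WT libraries against 6.19 between those. Across genes, the departure of each library from the mean of all 6 correlated with GC content at 0.32, -0.31 and 0.31 in knockout libraries 1 to 3 and at -0.034, -0.043 and -0.20 in WT libraries 1 to 3. The share of all tested genes with an edgeR adjusted p under 0.05 was 15.2% with all libraries and 20.2% with the GC trend removed. It was 28.1% without knockout library 2, 51.0% without knockout library 2 and WT library 1 together, 13.5% without WT library 1, and from 5.28% to 6.07% on leaving out any one of the other libraries. By other methods the share called was 19.6% with DESeq2, 15% with limma voom and 12.5% with limma on log2(FPKM + 1). By edgeR it was 10.6% with no filter on low counts, 10.8% with the replicate number as a block and 4.86% at an adjusted p under 0.01. Counts given below for these settings stand against those shares.

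Most of the hepatocyte genes had few or no reads, in the knockout and in WT alike. Of the 36 genes, 14 had no read in any of the 6 libraries, 12 had between 1 and 30 reads over all libraries, and 10 were high enough to be tested. Together the 36 genes took 0.00920%, 0.00891% and 0.00917% of the counts in knockout libraries 1 to 3 and 0.00993%, 0.00908% and 0.00959% in WT libraries 1 to 3. The urea cycle gene Asl accounted for 55.1%, 51.2% and 53.8% of those reads in the knockout and for 42.6%, 44.2% and 44.0% in WT. Among all protein-coding genes, 46.3% had a mean over the 6 libraries of at least 1 FPKM (scaled counts per kilobase of gene) and 28.5% had no read in any library. In the set, 6 genes had a mean of at least 1 FPKM over the knockout libraries and 9 over the WT libraries. A gene with no read among the 157722497 counts of the 6 libraries may still have been present at up to 0.019 CPM, the level of 3 reads.

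**Figure D1:**
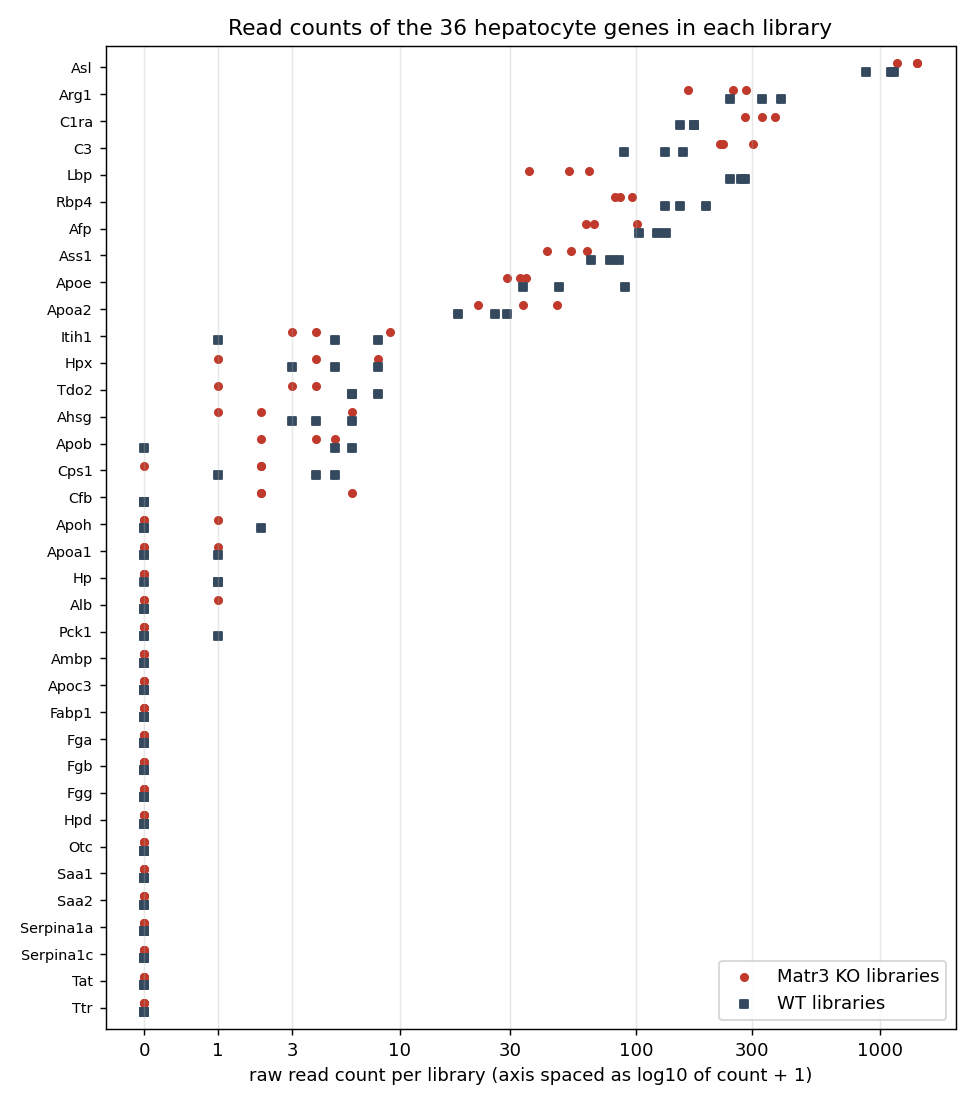
Raw read counts of the 36 hepatocyte genes in each library; each gene has 3 circles for the Matr3 KO libraries above 3 squares for the WT libraries, on an axis spaced as log10 of the count plus 1. The 10 tested genes stand above the rest, and 14 genes sit at 0 in all 6 libraries.

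Albumin, the most abundant plasma protein, was represented by 1 read, in knockout library 2. The transport proteins Ttr (transthyretin, the carrier of thyroxine) and Ambp (which yields the protease inhibitor bikunin), the fatty acid binding protein gene Fabp1 and the apolipoprotein gene Apoc3 had none. Apoa1, the main protein of high-density lipoprotein, had 1 read in the knockout and 1 in WT, and Apoh, a phospholipid-binding plasma protein, had 1 and 2. Apob, the core protein of low-density lipoprotein, had 2, 5 and 4 reads in knockout libraries and 6, 0 and 5 in WT libraries. Ahsg (fetuin-A) had 2, 6 and 1 reads in knockout libraries and 6, 4 and 3 in WT libraries. These values overlap between the groups. Albumin, transthyretin and apolipoprotein A-I, which define the cell type that the labels give, were thus at or near 0, and the line is called here by its label only.

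All 3 fibrinogen genes, Fga, Fgb and Fgg, which lie next to each other on chromosome 3, had no read. So did the antitrypsin genes Serpina1a and Serpina1c and the serum amyloid genes Saa1 and Saa2. These 4 belong to families of near-identical copies, and no source used here says how reads that match several copies were counted, so their zeros are uncertain. Another antitrypsin copy, Serpina1e, had 51 reads in the knockout and 48 in WT. The haem and haemoglobin scavengers had few reads too: Hp (haptoglobin) had no read in the knockout and 2 in WT, and Hpx (hemopexin) had 1, 8 and 4 reads in knockout libraries and 5, 8 and 3 in WT libraries. Itih1, a heavy chain that binds hyaluronan, had 4, 3 and 9 reads in knockout libraries and 8, 1 and 5 in WT libraries. None of the 8 genes of this group could be tested.

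Albumin and alpha-fetoprotein are neighbours on chromosome 5 and are transcribed in the same direction, and only the fetal gene passed the filter for testing. In the coordinates of the deposited table Alb lies at 90608756 to 90624461 and Afp at 90638596 to 90656766, plus strand. Afp had 2.67, 2.14 and 3.55 CPM in knockout libraries and 4.80, 4.56 and 5.06 CPM in WT libraries. Every knockout library lay below every WT library. Afp averaged 2.78 ± 0.714 CPM in the knockout and 4.81 ± 0.247 CPM in WT (SD, n = 3 each), with a log2 fold change of -0.79 (95% interval -1.30 to -0.27), and the test missed the threshold (edgeR adjusted p = 0.0505). Without knockout library 2 and WT library 1 it passed (-0.62, edgeR adjusted p = 0.0232), in a fit that called 51.0% of all genes. Afp also passed with no filter on low counts, by DESeq2 and by both limma fits. It passed in none of the 6 fits that left out a single library (edgeR adjusted p from 0.0563 to 0.166). Of the 16 alternative fits 5 called it, and the adjusted p ranged from 0.0232 to 0.166. The 250 bases before the annotated start of both genes, from RefSeq on build GRCm38.p6, are shown because the pair shares a locus but not a level. Albumin's stretch is chr5:90460620-90460869 and that of alpha-fetoprotein chr5:90490464-90490713, both on the plus strand. Capitals mark matches, on either strand, to a C/EBP core (TTGCNNAA) and a TATA box (TATAAA).
Alb: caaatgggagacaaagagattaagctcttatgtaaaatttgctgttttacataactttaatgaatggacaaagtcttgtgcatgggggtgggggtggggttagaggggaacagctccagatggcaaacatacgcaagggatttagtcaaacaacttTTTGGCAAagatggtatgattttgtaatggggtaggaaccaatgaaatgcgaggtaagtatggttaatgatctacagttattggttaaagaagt
Afp: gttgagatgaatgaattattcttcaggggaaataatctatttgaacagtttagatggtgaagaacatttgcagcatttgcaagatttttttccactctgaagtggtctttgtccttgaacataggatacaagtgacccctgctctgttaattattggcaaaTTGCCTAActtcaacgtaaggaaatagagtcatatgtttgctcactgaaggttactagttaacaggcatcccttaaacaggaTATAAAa
The C/EBP core lies 94 to 87 bases before the start of Alb and 89 to 82 bases before that of Afp. The letters TATAAA match 7 to 2 bases before the annotated start of Afp and nowhere in the stretch of Alb. Bases after the annotated start were not searched, so matches beyond these stretches would be missed for either gene. Any part of these letters in the levels was not tested. Of 32851 promoter stretches of this length, 9.56% hold the C/EBP core and 12.4% the TATA letters. Promoters were matched for 28 of the 36 genes. None was matched for the tested genes Lbp, Arg1 and Asl or for the untested Ttr, Cps1, Hp, Cfb and Apoc3. The C/EBP core was found in 4 of 7 tested and 9 of 21 untested genes, and the TATA letters in 4 of 7 and 3 of 21. A gene was counted where any of its stretches matched, while the percentages are of single stretches, so the 2 are not like for like. These are matches of letters, not sites of binding.

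Several liver factors that drive these genes also had few or no reads. The list of liver transcription factors as counted here holds 18 genes, of which 9 could be tested, and 0 were called by edgeR, against 15.2% of all genes tested; their median log2 fold change was 0.09, against -0.02 for all 14842 genes tested. At an unadjusted p under 0.05, 1 of the 9 was higher and 1 lower by edgeR, and DESeq2 and limma voom called 0. With the GC trend removed 1 fell, and with no filter on low counts 1 of 16 rose. Without knockout library 2, 1 rose, and without knockout library 2 and WT library 1 together, 2 rose. Hnf4a, a nuclear receptor that governs much of the hepatocyte programme, had 1 read in all 6 libraries together. Onecut1 and the bile acid sensor's target Nr0b2 had no read, and Prox1 and Nr5a2 had 1 and 2. Other factors were present: Foxa2, a pioneer factor of liver enhancers, at 7.97 ± 1.35 FPKM in the knockout and 7.45 ± 1.16 FPKM in WT, and the bile acid receptor gene Nr1h4 at 7.31 ± 0.538 and 5.23 ± 1.26 FPKM (SD, n = 3 each). Cebpa, the C/EBP factor of mature hepatocytes, averaged 0.767 FPKM in the knockout and 1.28 FPKM in WT (edgeR adjusted p = 0.0979).

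**Figure D2:**
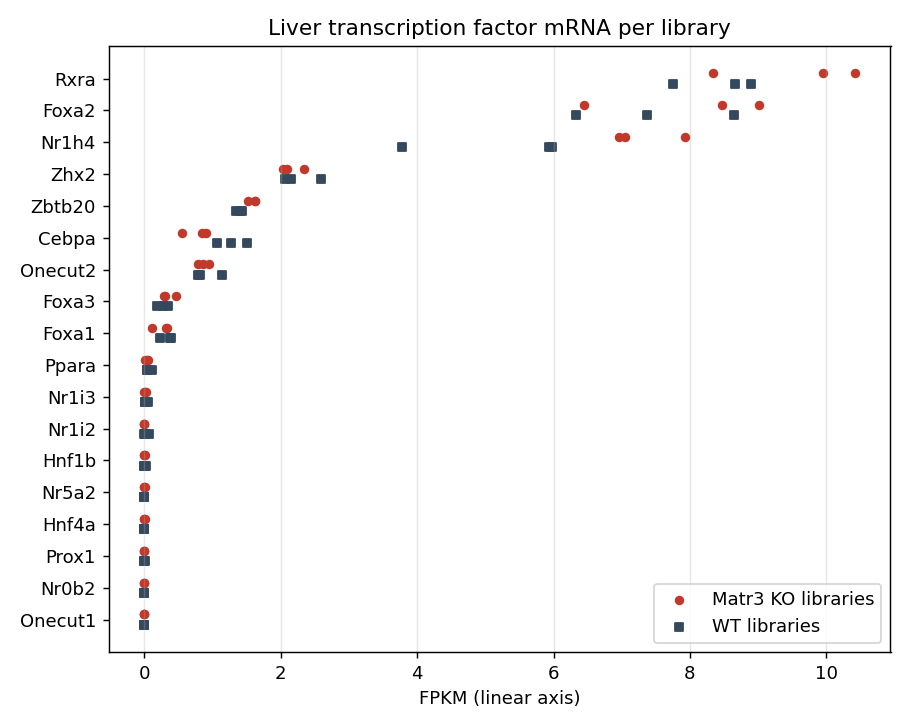
FPKM of 18 liver transcription factor genes in each library on a linear axis, with circles for the Matr3 KO libraries above squares for the WT libraries. Foxa2, Rxra and Nr1h4 lie highest, while Hnf4a, Onecut1 and Prox1 lie at or near 0 in both groups.

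Among the 10 tested genes of the set, 2 rose and 3 fell in the knockout and 5 did not pass. Of all 14842 genes tested, 15.2% were called, 7.69% upward and 7.48% downward (edgeR quasi-likelihood test, p adjusted by Benjamini-Hochberg over all genes tested, under 0.05). All 10 had at least 18 reads in every library. The other genes of the set were too low to test, so the count describes the tested genes only. Their median log2 fold change was -0.65, against -0.02 for all genes tested. In 8 of the 10 the groups did not overlap, as in 36.6% of all genes tested. In bulk RNA, fewer cells that make a transcript and less of it per cell cannot be told apart.

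**Figure D3:**
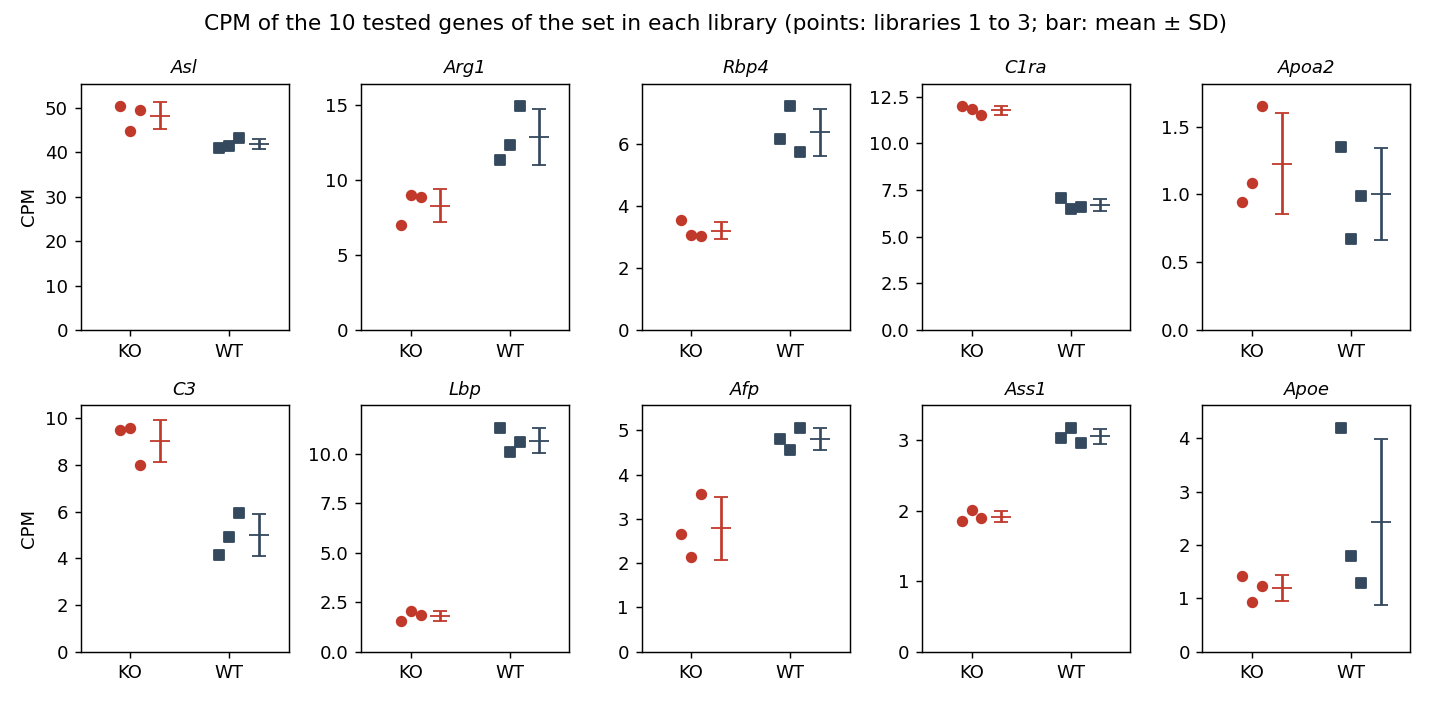
CPM of the 10 tested hepatocyte genes, with Matr3 KO libraries as circles on the left and WT libraries as squares on the right of each panel, and the mean ± SD of 3 libraries beside the points. Lbp shows the widest gap, with 1.55 to 2.04 CPM in KO and 10.1 to 11.3 CPM in WT, and the WT values of Apoe are spread by WT library 1.

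Per gene length, the order of the tested genes was led by Asl, at 10.4, 9.33 and 10.3 FPKM in knockout libraries and 8.31, 8.58 and 8.94 FPKM in WT libraries. Asl encodes argininosuccinate lyase, the urea cycle enzyme that releases arginine and is also used by cells outside the liver. Next by mean over the 6 libraries came Arg1, Rbp4 and C1ra, then Apoa2, C3, Lbp, Afp, Ass1 and Apoe. The order differed between the groups: in the knockout C1ra (mean 3.96 FPKM) stood above Arg1 (3.72 FPKM) and Lbp was lowest at 0.377 FPKM, while in WT Lbp averaged 2.20 FPKM, close to C1ra at 2.24 FPKM, and C3 was lowest at 0.966 FPKM. In the knockout the ranges of Arg1 (3.14 to 4.06 FPKM) and C1ra (3.87 to 4.01 FPKM) overlapped, while in WT those of Arg1 (4.97 to 6.69 FPKM) and Rbp4 (4.28 to 5.37 FPKM) did. Asl was above 77.4% of all protein-coding genes by mean FPKM, and Apoe, the lowest of the 10 by the mean over all libraries, above 52.8%.

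The largest change among the 10 was a fall of Lbp, the plasma protein that hands bacterial lipopolysaccharide to CD14. Lbp (ENSMUSG00000016024; chromosome 2, 158148413 to 158174772, plus strand, in the table's coordinates) had 36, 64 and 53 reads in knockout libraries and 243, 270 and 279 in WT libraries, that is 1.55, 2.04 and 1.86 CPM against 11.3, 10.1 and 10.6 CPM. All knockout values lay far below all WT values. The level was 5.83-fold lower in the knockout, with a log2 fold change of -2.54 (SE 0.169, 95% interval -2.93 to -2.16; edgeR adjusted p = 0.000194). This placed Lbp 100th from the lowest fold change among 14842 genes tested. It stayed called under all 16 alternative fits, with an edgeR adjusted p of 0.000140 to 0.00233 when a library was left out.

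Both other tested proteins of complement and the acute phase moved the other way. C3, the central component on which all complement pathways converge, had 9.51, 9.60 and 8.01 CPM in knockout libraries and 4.15, 4.90 and 5.93 CPM in WT libraries. Its level was 1.81-fold higher in the knockout (log2 fold change 0.85, SE 0.175, edgeR adjusted p = 0.0161). C1ra, the protease that activates C1s within the first complement complex, had 279, 371 and 328 reads in knockout libraries and 152, 173 and 173 in WT libraries, with means of 11.8 ± 0.241 CPM and 6.71 ± 0.330 CPM (SD, n = 3 each). It was 1.76-fold higher (log2 fold change 0.81, SE 0.121, edgeR adjusted p = 0.00469). In both genes every knockout library stood above every WT library. The call of C3 ended without knockout library 1 (edgeR adjusted p = 0.0621) or WT library 2 (0.0667), so that 1 of the set rose there, while C1ra passed in all 16 alternative fits. Cfb, which forms the convertase of the alternative pathway with C3, had 2, 2 and 6 reads in knockout libraries and none in WT libraries. Set against a floor of 3 reads over the WT group, the knockout reads as counted were 2.99-fold higher. That value leaves out the counting error of the knockout reads, and Cfb was too low to test.

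The same stretches before the annotated start are shown for C3 and C1ra, the genes of the set that rose. They come from RefSeq on build GRCm38.p6, at chr17:57228137-57228386 on the minus strand for C3 and chr6:124512371-124512620 on the plus strand for C1ra. Capitals mark the motifs given above.
C3: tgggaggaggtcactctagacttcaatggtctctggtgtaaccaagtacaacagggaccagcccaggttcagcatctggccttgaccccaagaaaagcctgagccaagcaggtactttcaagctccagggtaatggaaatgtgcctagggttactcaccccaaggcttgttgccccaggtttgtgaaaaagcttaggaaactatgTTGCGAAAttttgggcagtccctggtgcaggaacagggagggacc
C1ra: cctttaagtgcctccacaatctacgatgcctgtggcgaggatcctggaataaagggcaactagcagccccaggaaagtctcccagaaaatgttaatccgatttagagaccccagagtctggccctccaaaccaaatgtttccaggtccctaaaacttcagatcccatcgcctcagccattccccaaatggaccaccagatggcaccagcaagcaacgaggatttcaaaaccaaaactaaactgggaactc
C3 held a C/EBP core 45 to 38 bases before its start. No other match to either motif was found in these windows.

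C1ra sits in a cluster of C1r and C1s genes on chromosome 6, and all 5 tested genes of the cluster had positive log2 fold changes. Beside C1ra, C1rl, a C1r-like protease gene, rose (log2 fold change 0.87, SE 0.188; edgeR adjusted p = 0.0191), and its call ended on leaving out knockout library 1 or 3 or WT library 2 (edgeR adjusted p between 0.0623 and 0.0798). Named after their values were seen, C1s1 (0.70, SE 0.206), C1rb (0.75, SE 0.342) and C1s2 (0.93, SE 0.363) did not pass, with edgeR adjusted p of 0.0559, 0.177 and 0.120. C1ra and C1rb, like C1s1 and C1s2, are close copies, so the split of reads between them is uncertain. Of 10 tested genes among the 30 other complement genes counted here, 1 rose and 9 did not pass. Their median log2 fold change was 0.50, against -0.02 for all genes tested. Cfp (-0.70, SE 0.380) and C2 (-0.29, SE 0.489) had negative log2 fold changes, while the other tested genes had positive ones. Masp2 had no read in the knockout and 10, 3 and 2 in WT libraries, and C4b had 1 read in the knockout and 9 in WT. Both were too low to test. With no filter on low counts 2 of 18 rose and 1 fell. By DESeq2 and by limma voom 2 rose, and 3 rose with the GC trend removed. Without WT library 1, 2 rose, and without knockout library 2 and WT library 1 together, 4 rose. On leaving out knockout library 1, knockout library 3 or WT library 2, edgeR called 0, with 3, 5 and 4 genes at an unadjusted p under 0.05. Of the terminal components, C6, C7, C8a, C8b and Hc had no read, and C9 had 10 reads in the knockout and 15 in WT. C8g, which encodes the gamma chain of C8, had 72, 48 and 58 reads in knockout libraries and 37, 28 and 21 in WT libraries and did not pass (log2 fold change 0.90, SE 0.391, edgeR adjusted p = 0.158). Clu, a secreted chaperone that binds the terminal complex, was the most abundant of the list, at 73.6 ± 4.48 FPKM in the knockout and 70.6 ± 9.61 FPKM in WT (SD, n = 3 each).

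**Figure D4:**
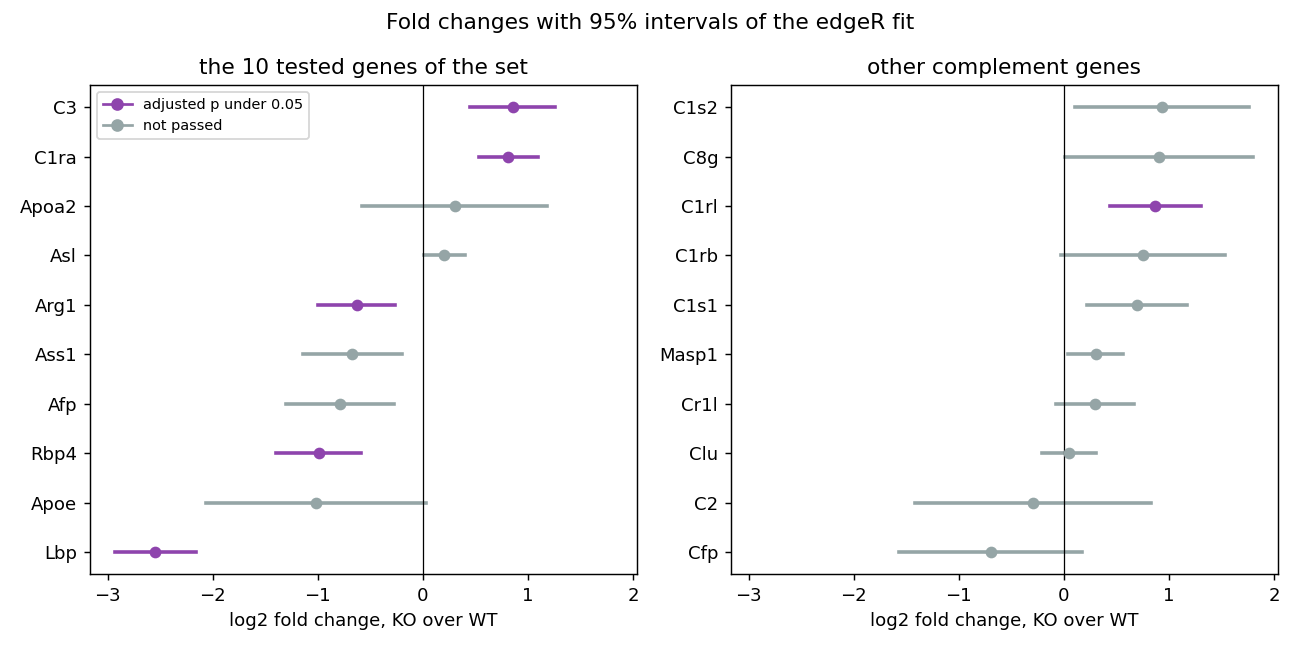
Log2 fold changes of Matr3 KO over WT with 95% intervals of the edgeR fit, for the 10 tested hepatocyte genes (left) and the 10 tested genes of the other complement list (right); purple marks an adjusted p under 0.05. Lbp lies far below 0, while C3, C1ra and C1rl lie above it.

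Of the receptors and signals of the acute phase response, 18 of 20 genes were tested. Of these 1 rose, 2 fell and 15 did not pass, a share called close to the 15.2% of all genes tested, with a median log2 fold change of 0.03. With the GC trend removed 3 rose and 2 fell, and by DESeq2 2 rose and 2 fell. Without knockout library 2, 5 rose and 3 fell (28.1% of all genes were called), and without knockout library 2 and WT library 1 together, 6 rose and 7 fell (51.0% of all genes). Lifr, a receptor subunit for leukaemia inhibitory factor, fell to 11.7 ± 1.79 CPM in the knockout, against 26.5 ± 1.00 CPM in WT (log2 fold change -1.18, edgeR adjusted p = 0.00167). Il6ra, the interleukin-6 receptor chain, fell by 0.48 on the log2 scale (0.00978), and the kinase gene Tyk2 rose by 0.50 (0.0319). The calls of Il6ra and Tyk2 ended on leaving out knockout library 1 or 3 or WT library 2 or 3 (edgeR adjusted p between 0.0591 and 0.0778 for Il6ra and between 0.0727 and 0.119 for Tyk2). Stat3, the transcription factor that carries the interleukin-6 signal, had a log2 fold change of 0.05 (SE 0.0924) and Cebpb of 0.37 (SE 0.233), and neither passed.

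Rbp4, the plasma carrier of retinol, fell. It had 3.53, 3.06 and 3.02 CPM in knockout libraries and 6.15, 7.22 and 5.74 CPM in WT libraries, with no overlap. The level was 1.99-fold lower in the knockout (log2 fold change -0.99, SE 0.176, edgeR adjusted p = 0.00924), and the call ended without knockout library 3 (edgeR adjusted p = 0.0532). Apoa2, a protein of high-density lipoprotein, had 0.946, 1.08 and 1.65 CPM in knockout libraries and 1.35, 0.673 and 0.988 CPM in WT libraries, and its groups overlapped (log2 fold change 0.30, 95% interval -0.58 to 1.18). Apoe, an apolipoprotein that many cell types make, had 1.42, 0.924 and 1.23 CPM in knockout libraries and 4.20, 1.79 and 1.29 CPM in WT libraries. WT library 1 lay far above the rest, and the log2 fold change of -1.02 (95% interval -2.07 to 0.03; edgeR adjusted p = 0.171) was -0.23 without knockout library 2 and WT library 1.

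Other plasma protein genes mostly had few or no reads as well. Of 54 genes on that list, 26 had no read and 7 were tested, of which 2 rose, 1 fell and 4 did not pass (median log2 fold change -0.06). The share called among all genes tested was 15.2%. With the GC trend removed, and also by DESeq2, 3 rose and 1 fell, in fits that called 20.2% and 19.6% of all genes. Without knockout library 2 and WT library 1 together, 3 rose and 2 fell, in a fit that called 51.0% of all genes. Serpinf1, which encodes a secreted inhibitor of blood vessel growth, fell to 22.1 ± 0.792 CPM in the knockout, against 58.2 ± 5.61 CPM in WT (log2 fold change -1.40, edgeR adjusted p = 0.000246). Fetub (fetuin-B, a protease inhibitor) rose to 68.9 ± 8.68 CPM in the knockout, against 44.8 ± 5.46 CPM in WT (0.62, edgeR adjusted p = 0.0156). Proc, the gene of the anticoagulant protein C, rose to 2.70 ± 0.311 CPM, against 0.844 ± 0.334 CPM in WT (1.69, edgeR adjusted p = 0.0134; SD, n = 3 for each mean). The calls of Fetub and Proc ended without WT library 3 (edgeR adjusted p = 0.0584 and 0.0623).

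The first enzymes of the urea cycle had few or no reads, and the later ones were present. Otc, the ornithine carbamoyltransferase that makes citrulline, had no read, and Cps1, the enzyme that brings ammonia into the cycle, had 0, 2 and 2 reads in knockout libraries and 4, 5 and 1 in WT libraries. Arg1, the arginase that releases urea, had 7.01, 8.99 and 8.82 CPM in knockout libraries and 11.3, 12.3 and 14.9 CPM in WT libraries. All knockout values lay below all WT values, a 1.55-fold lower level (log2 fold change -0.63, SE 0.160, edgeR adjusted p = 0.0333). The call of Arg1 ended on leaving out knockout library 1 or 3 or WT library 2 or 3 (edgeR adjusted p between 0.0906 and 0.141) and with limma on log2(FPKM + 1) (adjusted p = 0.0501); without knockout library 3, Lbp was the 1 gene of the set that fell. Ass1, which joins citrulline to aspartate, had 1.85, 2.01 and 1.90 CPM in knockout libraries and 3.03, 3.18 and 2.96 CPM in WT libraries. The groups did not overlap, but the test missed the threshold (log2 fold change -0.67, 95% interval -1.14 to -0.20; edgeR adjusted p = 0.0627). With the GC trend removed it passed (-0.73, edgeR adjusted p = 0.0411). Asl had 50.4, 44.8 and 49.5 CPM in knockout libraries and 40.9, 41.4 and 43.1 CPM in WT libraries. Its knockout values lay above its WT values, with a log2 fold change of 0.20 (95% interval 0.01 to 0.40; edgeR adjusted p = 0.149) that passed without knockout library 2 (0.26, 0.0340). Without knockout library 2 and WT library 1 together, 3 genes of the set rose and 5 fell, Asl joining the first and Afp and Ass1 the second, in a fit that called 51.0% of all genes.

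The liver enzymes of amino acid breakdown and gluconeogenesis were near or at 0. Tat and Hpd, both of tyrosine breakdown, had no read. Hpd lies inside the span of Psmd9 on the other strand, and whether counting used the strand is not stated. Tdo2, which opens tryptophan breakdown, had 4, 3 and 1 reads in knockout libraries and 6, 6 and 8 in WT libraries and was not tested. Pck1, the cytosolic enzyme that commits carbon to glucose, had 1 read in all, in WT library 1. Its mitochondrial counterpart Pck2 was at 56.3 ± 7.46 FPKM in the knockout and 35.8 ± 3.36 FPKM in WT (SD, n = 3 each) and rose (log2 fold change 0.64, edgeR adjusted p = 0.0146). The liver glucose-6-phosphatase G6pc and Fbp1 had no read, while the widely expressed G6pc3 was at 29.4 ± 3.42 FPKM in the knockout and 22.8 ± 1.46 FPKM in WT and did not pass (0.36, edgeR adjusted p = 0.0603).

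Of 21 tested genes on the list of other urea cycle, amino acid and glucose enzymes, 6 rose, 2 fell and 13 did not pass. Among all genes tested, 7.69% rose and 7.48% fell. The 21 had a median log2 fold change of 0.20, against -0.02 for all genes tested. On leaving out knockout library 1 or 3 or WT library 2 or 3, 1 or 2 genes of the list rose and 1 fell. Those fits called from 5.28% to 6.07% of all genes. Without knockout library 2 and WT library 1 together, 9 rose and 8 fell, where 51.0% of all genes were called. Gls2, the glutaminase named after liver, rose to 9.25 ± 0.236 CPM in the knockout, against 5.12 ± 0.154 CPM in WT (log2 fold change 0.85, edgeR adjusted p = 0.00531), and Gpt2, the mitochondrial alanine transaminase, by 0.48 (0.0107). The deepest fall was that of Cth, which makes cysteine from cystathionine, at 0.430, 0.733 and 0.351 CPM in knockout libraries and 7.37, 9.54 and 7.87 CPM in WT libraries (log2 fold change -4.00, edgeR adjusted p = 0.000246). Slc25a12, a mitochondrial carrier of aspartate and glutamate, fell by 0.39 (0.0480). The calls of Pck2 and Slc25a12 ended on leaving out knockout library 1 or 3 or WT library 2 or 3 (edgeR adjusted p between 0.0551 and 0.0719 for Pck2, and between 0.162 and 0.222 for Slc25a12), and that of Gpt2 without knockout library 1 or WT library 3 (0.0506 and 0.0548). The call of Slc25a12 also ended with the replicate number as a block (edgeR adjusted p = 0.0572), with no filter on low counts (0.0885) and with limma on log2(FPKM + 1) (adjusted p = 0.0911).

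Markers of other liver cells were measured beside these genes. Of 5 bile duct markers, Krt19 rose to 345 ± 13.2 FPKM in the knockout, against 151 ± 8.56 FPKM in WT, Spp1 fell (log2 fold change -0.75), Epcam and Sox9 did not pass, and Krt7 had 1 read; the summed level was 522.9 to 555 FPKM in the knockout and 430.2 to 503 FPKM in WT. Of 5 stellate and fibroblast markers, Col1a1 (0.81) and Des (0.58) rose, Pdgfrb fell (-1.39), Acta2 was too low to test and Lrat had no read, with sums of 6.95 to 8.80 FPKM in the knockout and 5.25 to 5.88 FPKM in WT. No stellate or fibroblast marker was called on leaving out knockout library 1 or 3 or WT library 2 or 3, or at an adjusted p under 0.01. Without WT library 1, 1 of them rose and 1 fell. Of 4 endothelial markers, Cdh5 fell (-2.27), Pecam1 did not pass and Stab2 and Kdr were too low to test, with sums of 0.206 to 0.289 FPKM in the knockout and 0.633 to 0.805 FPKM in WT. Of 6 Kupffer and blood cell markers, Cd68 was tested and did not pass, Ptprc had 6 reads, and Adgre1, Clec4f and Hbb-bs had none. The haemoglobin gene Hba-a1, which has a near-identical copy, had 6, 14 and 15 reads in knockout libraries and 1, 2 and 2 in WT libraries, without overlap, and was too low to test. The 6 markers had sums of 10.5 to 13.3 FPKM in the knockout and 8.35 to 9.54 FPKM in WT. The part of these markers in the results on the hepatocyte genes was not tested. In the authors' deposited table, the log2 fold change is -2.10 for Lbp, -0.81 for Rbp4, -0.54 for Arg1, -0.60 for Afp, 0.74 for C1ra and 0.73 for C3, with an adjusted p under 0.05 for these 6.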

How the data were processed

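Per the file headers, the table deposited by the authors holds raw counts per gene and FPKM values for each library. Per the file headers it also holds a signal (1 mean of scaled counts for each group), log2 fold changes and p-values of a comparison made by the authors. For the aligner, the counter, the tool of that comparison, strandedness and the annotation, nothing is given in the sources used here. GRCm38 and mm10 stand in the submitters' processing notes, but 0 of the 36 genes have the table's coordinates in GENCODE M21, an annotation of GRCm38, so the build of the table's coordinates is not settled.

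The test was the quasi-likelihood F test of edgeR 4.0.16 (R 4.3.3) on the counts, after filterByExpr, which left 14842 genes, and TMM scaling, without covariates. Benjamini-Hochberg adjustment ran over all genes tested, with calls under 0.05. Every edgeR adjusted p in the text comes from this test. Those given for an alternative or without a library come from refits of it, adjusted over the genes tested in that fit. Fold changes set knockout over WT, standard errors follow from the F statistic, and CPM uses TMM-adjusted totals. Levels between genes use FPKM. Unannotated features, 159 rows with 0.242% of all counts, were kept. Motifs were searched in the 250 bases before each annotated start.

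The genes of the set and the lists were chosen with earlier results of these data known. Some genes of the lists are not reported here and are left out of their lists' counts, medians and plots. Values in every library are given for the called genes of the set and its most abundant ones. From each list, up to 3 called genes in each direction were named. All other genes were picked for naming with their values known. Alternatives were RLE scaling, library totals alone, no filter, a mean of at least 1 CPM, the replicate number as a block, DESeq2 1.42.0, limma 3.58.1 with voom or on log2(FPKM + 1), an adjusted p under 0.01, removal of the GC trend, and leaving out libraries. Intervals are 95% intervals; floors cover counting error only, since no molecular identifiers are mentioned in the labels and PCR copies may count separately.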

Additional observations from a re-analysis of the deposited data

How the results depend on the processing

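All 10 tested genes of the set kept their direction in each of 170 combinations of gene and alternative; 10 of these lost a call and 10 gained one. The count of the set's genes that rose, 2 in the full fit, was 1 at an adjusted p under 0.01, and from 1 to 3 when a library was left out. The count that fell, 3 in the full fit, ranged from 1 to 3 when a library was left out and was 5 without knockout library 2 and WT library 1 together. With no filter on low counts 22 genes of the set could be tested in place of 10, and 4 fell, Afp being the addition. No label says that replicate numbers pair the libraries. Deviations of same-numbered libraries correlated at 0.221, -0.0369 and -0.289, and those of differently numbered ones at -0.317 to 0.374. Deviations from a group's own mean are tied to each other, so these values cannot settle whether libraries were made in pairs. With the replicate number as a block 2 genes of the set rose and 3 fell, and the count over all genes was 1599 against 2252. The 12 genes with reads that were not tested had at most 30 reads over 6 libraries, which limits what their counts can show.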

Other observations

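The nearest tested protein-coding gene on either side of each gene of the set that changed was looked up after the values were seen. Beside Lbp, the gene D630003M21Rik had a log2 fold change of -0.70 (SE 0.650) and Ralgapb, a regulator of Ral GTPases, of 0.30 (SE 0.0956), and neither passed (edgeR adjusted p = 0.0713 for Ralgapb). Beside C3, Gpr108 rose by 0.52 (edgeR adjusted p = 0.00536), while the tumour necrosis factor family gene Tnfsf9 had -0.26 and did not pass. The neighbours of C1ra, C1rl and C1s1, are genes of its own cluster, with log2 fold changes of 0.87 and 0.70. Beside Rbp4, the cytokinesis gene Cep55 fell by 0.36 on the log2 scale (edgeR adjusted p = 0.0331), and Fra10ac1 had -0.02. Beside Arg1, Med23, a subunit of the Mediator complex, had 0.00 and Akap7 0.44, and neither passed.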
